A study of Mus musculus with 32 samples.

Results

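Of the 34453 genes in the deposited count table, 10 genes of the integrated stress response and the unfolded protein response were examined, picked by symbol. They were *Atf4*, *Ddit3*, *Trib3*, *Chac1*, *Asns*, and *Atf3*, which act in or downstream of the integrated stress response, and *Xbp1*, *Hspa5*, *Hsp90b1*, and *Herpud1*, which act in the unfolded protein response of the endoplasmic reticulum (ER). RNA came from the retinal pigment epithelium (RPE) of 16 mice labelled *rd1*, a strain that lacks function of the rod phosphodiesterase Pde6b and loses its rods early in life. One eye of each mouse had been injected with AAV-Best1-GFP together with AAV-Best1-Nrf2, which carries human *NFE2L2* under an RPE promoter, and is called the Nrf2 eye. The fellow eye, called the control eye, had received AAV-Best1-GFP alone. Both eyes were sampled from 7 mice at P20 and from 9 mice at P40, giving 32 libraries with total counts between 16548332 and 50542797. The methods of the study also name wild-type CD1 pairs at P40, and fewer *rd1* pairs at each age than are used here, whereas every library was labelled *rd1*. The groups at P40 may therefore hold eyes of both strains, and strain cannot be told apart from age or from differences among P40 mice in any value that uses P40.

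The integrated stress response begins with kinases that phosphorylate the translation factor eIF2, which lowers protein synthesis in general and raises translation of ATF4, a transcription factor that induces genes of amino acid supply and, under lasting stress, of cell death. The unfolded protein response is set off when unfolded proteins gather in the ER, and runs through the sensors PERK, IRE1, and ATF6 to raise chaperones and degradation of ER proteins. PERK phosphorylates eIF2 and so joins both responses. Because ATF4 is controlled mainly by translation and XBP1 by splicing of its mRNA, counts per gene read neither the ATF4 protein nor the spliced form of *Xbp1*.

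The transgene was measured first, as a check of the labels. Human *NFE2L2* was at 1082 to 9506 CPM (counts scaled to library size) in the P20 Nrf2 eyes (median 5430) and at 0.924 to 1098 CPM in the P20 control eyes (median 47.2). At P40 it was at 3205 to 10438 CPM in Nrf2 eyes (median 7024) and at 0 to 99.2 CPM in control eyes (median 0.383). The P20 groups overlapped because of a pair of libraries, the one labelled control eye of mouse 3, at 1098 CPM, and the one labelled Nrf2 eye of mouse 4, at 1082 CPM. These libraries were also closer to each other than any other pair, with a squared difference of 8.25 times sampling noise, against 48.6 times for the next closest pair. Fold changes of the 10 genes at P20 and between the ages are therefore given with and without P20 mice 3 and 4. *NFE2L2* was also counted in other control eyes, at 154, 66.3, and 47.2 CPM in P20 mice 5, 4, and 2. At P40 it was at 99.2 and 49.0 CPM in the control eyes of mice 8 and 5. Leaving out P20 mice 3 and 4 does not remove P20 mice 5 and 2 or these P40 mice.

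Defining markers of RPE were present in every group. The summed level of 12 RPE markers ran from 5871 to 26683 CPM in P20 control eyes (median 16520), from 12567 to 30399 in P20 Nrf2 eyes (median 18465), from 12551 to 70780 in P40 control eyes (median 37982), and from 13681 to 72896 in P40 Nrf2 eyes (median 21365). *Rgr* had the highest mean of the RPE list in P20 control eyes, at 6251 CPM, and *Ttr* in the other groups. Markers of other cells were present too, and no marker on any list was at 0 in all libraries of a group. Since these were bulk samples, fewer cells of a type and less RNA per cell cannot be told apart.

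The ER chaperones were the most abundant of the 10 genes once levels were divided by exon length. In P20 control eyes (n = 7), *Hspa5*, which encodes the ER chaperone BiP, was at 164 ± 24.6 CPM per kb (mean ± SD), and *Hsp90b1*, which encodes the chaperone GRP94, at 113 ± 13.8. *Xbp1*, a transcription factor activated by IRE1, followed at 65.6 ± 7.58 CPM per kb, and *Herpud1*, a factor of ER-associated degradation, at 59.2 ± 5.28. The latter values were within the spread of the libraries. *Atf4* was at 31.1 ± 2.32 CPM per kb, *Ddit3*, which encodes the proapoptotic factor CHOP, at 13.1 ± 3.36, and *Chac1*, which encodes an enzyme that degrades glutathione, at 7.40 ± 3.20. *Asns*, the gene of asparagine synthetase, was at 3.24 ± 2.43 CPM per kb, *Atf3*, a stress-induced transcription factor, at 1.54 ± 0.606, and *Trib3*, a pseudokinase that restrains ATF4 and CHOP, at 1.24 ± 0.344, and these 3 were not separated beyond their spread. In P40 control eyes (n = 9), *Ddit3* was at 31.5 ± 15.8 CPM per kb, level with *Atf4* at 32.4 ± 2.41, and *Trib3* at 4.57 ± 2.16, level with *Asns* at 3.89 ± 1.12.

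Some of these genes share promoter letters that are known as response elements. Their part in the levels of these genes was not tested. RefSeq promoter sequences (build GRCm38.p6) matched all 10 genes, and the 250 bases before each start site were searched on both strands for TGATGNAA (the C/EBP-ATF response element), for CCAAT, 9 bases, and CCACG (the ER stress response element), and for TGACNNNGC (the antioxidant response element). The first was found in 4 of the 10 promoters and in 3.45% of all 32851 promoters, the next in 2 of 10 and 0.113% of all, and the last in 2 of 10, those of *Asns* and *Herpud1*, and 10.2% of all. In the sequences below, written 5′ to 3′ on the strand of the gene, capitals mark the matching letters, and a match is a description of the sequence and not of a bound site.
Asns: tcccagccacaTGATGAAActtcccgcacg
Atf3: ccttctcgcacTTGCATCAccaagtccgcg
Chac1: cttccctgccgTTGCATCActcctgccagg
Herpud1: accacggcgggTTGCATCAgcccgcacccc
Hspa5: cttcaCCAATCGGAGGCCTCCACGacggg
Hsp90b1: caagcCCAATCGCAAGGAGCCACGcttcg
The *Asns* sequence lies at chr6:7693214-7693243 (minus strand) and the *Hspa5* sequence at chr2:34772020-34772048 (plus strand), and both fall in an untranslated exon of a longer annotated transcript of the same gene. The *Atf3* sequence, at chr1:191183425-191183454 (minus strand), lies in an intron of a longer *Atf3* transcript, and the *Herpud1* sequence, at chr8:94386306-94386335 (plus strand), in an intron of *Gm15890*. The *Chac1* sequence, at chr2:119351038-119351067 (plus strand), and the *Hsp90b1* sequence, at chr10:86705633-86705661 (minus strand), lie between annotated genes. *Hsp90b1* held a further match on the other strand.

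**Figure D1:**
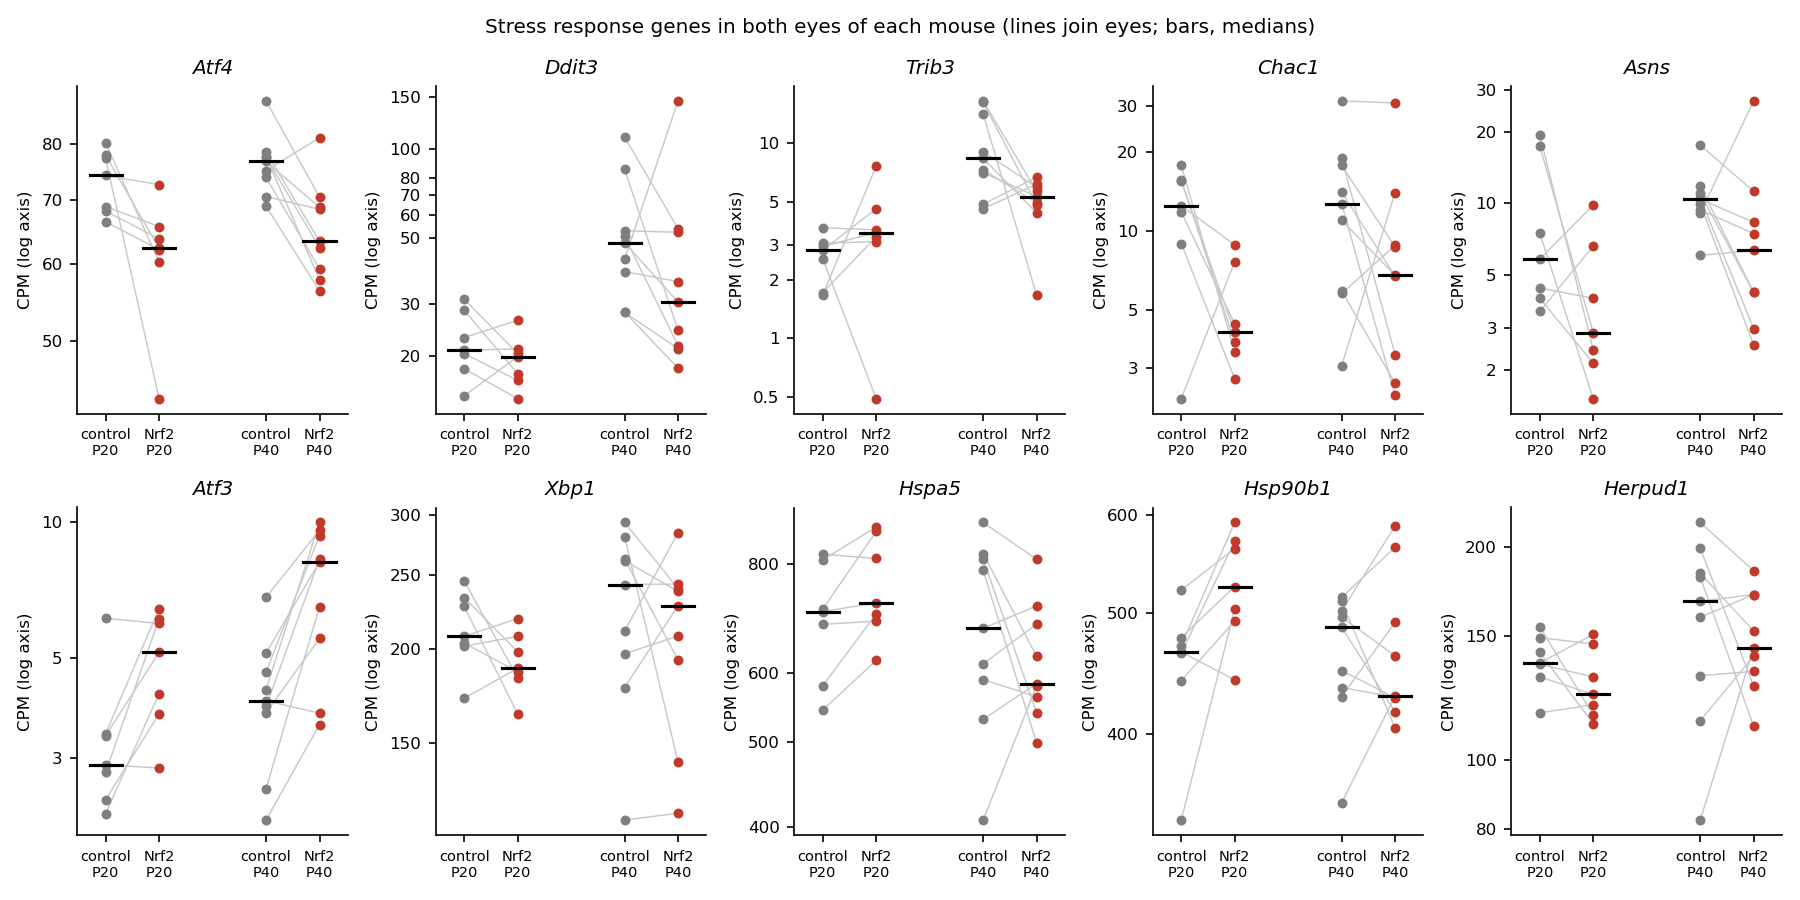
Level of each gene (CPM, log axis) in control eyes (gray) and Nrf2 eyes (red) at P20 (7 mice) and P40 (9 mice), with lines joining the eyes of a mouse and bars at the medians. *Trib3* in control eyes does not overlap between the ages (1.67 to 3.68 CPM at P20, 4.60 to 16.3 CPM at P40), and *Atf4* is lower in the Nrf2 eye of all 7 mice at P20.

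The comparison of the eyes sets these genes in the Nrf2 eye against those in the control eye of the same mouse. By the methods, the Nrf2 eye received a higher total vector dose, and its added vector had another capsid. Vector load can therefore not be told apart from expression of Nrf2 in any difference between the eyes. None of the 10 genes passed an adjusted *P* of 0.05 at P20 by edgeR's quasi-likelihood test, where 3.41% of all 16303 genes tested did. At an unadjusted *P* under 0.05 there were 3 of 10 (18.2% of all genes), and DESeq2 and limma voom each called 1 of 10 (12% and 16% of all genes). When P20 mice 3 and 4 were left out, edgeR called 1 of 10, against 4.58% of 16567 genes. At P40, edgeR again called 0 of 10, against 4.57% of 16686 genes, with 3 of 10 at an unadjusted *P* under 0.05 (13% of all genes) and 1 of 10 each by DESeq2 (8.27%) and limma voom (7.95%). The median log2 fold change of the 10 genes was −0.16 at P20 and −0.21 at P40, beside −0.04 and −0.03 over all genes tested. All 10 genes passed the filter on low counts in each comparison.

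*Atf4*, the central factor of the integrated stress response, had the same direction in nearly every mouse, with differences of unequal size. At P20 its level was 66.5 to 80.3 CPM in control eyes (median 74.3) and 43.5 to 72.6 CPM in Nrf2 eyes (median 62.4), and at P40 it was 69.0 to 88.8 CPM in control eyes (median 76.8) and 56.3 to 81.3 CPM in Nrf2 eyes (median 63.4). The groups overlapped at both ages, while within mice the Nrf2 eye was the lower one in 7 of 7 mice at P20 and in 8 of 9 at P40 (7 of 9 with RLE scaling, 9 of 9 with total counts). The log2 fold change was −0.30 (adjusted *P* = 0.239, SE 0.12) at P20 and −0.27 (adjusted *P* = 0.337, SE 0.12) at P40, neither past the threshold. Without P20 mice 3 and 4 the value at P20 was −0.39 (SE 0.14), and leaving out 1 mouse gave −0.35 to −0.20. The log2 differences within mice at P20 had a median of −0.10, and the largest were those of mouse 2 (−0.83) and mouse 6 (−0.41).

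*Chac1* had the largest difference between the eyes at P20 of the 10 genes. Its level was 2.30 to 17.9 CPM in P20 control eyes (median 12.5) and 2.74 to 8.89 CPM in P20 Nrf2 eyes (median 4.13). In 6 of 7 mice the Nrf2 eye was lower, and the exception was mouse 4, whose control eye, at 2.30 CPM, lay far below the other control eyes (8.98 to 17.9 CPM). The log2 fold change was −1.31 (adjusted *P* = 0.210, SE 0.49). Without P20 mice 3 and 4 it was −1.71 (adjusted *P* = 0.0340, SE 0.31), without mouse 4 alone −1.72 (adjusted *P* = 0.00810), with DESeq2 −1.29 (adjusted *P* = 0.0352), and with limma voom −1.43 (adjusted *P* = 0.0164), and over all alternatives the adjusted *P* ran from 0.00810 to 0.453. Whether *Chac1* passed the threshold at P20 therefore depended on the test and on mouse 4. At P40 the range was 3.08 to 31.5 CPM in control eyes (median 12.8) and 2.37 to 30.9 CPM in Nrf2 eyes (median 6.81), with the Nrf2 eye lower in 7 of 9 mice and a log2 fold change of −0.76 (adjusted *P* = 0.558, SE 0.44), or −1.07 to −0.54 when 1 mouse was left out. Both eyes of P40 mouse 8 had the highest *Chac1* levels of their groups.

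*Asns*, like *Chac1*, varied widely among mice. It was at 3.51 to 19.3 CPM in P20 control eyes (median 5.83) and at 1.51 to 9.81 CPM in P20 Nrf2 eyes (median 2.86), and at 6.04 to 17.6 CPM in P40 control eyes (median 10.4) and 2.54 to 26.9 CPM in P40 Nrf2 eyes (median 6.33). The groups overlapped, and the Nrf2 eye was lower in 5 of 7 mice at P20 and 7 of 9 at P40 (8 of 9 with RLE scaling). The log2 fold change was −1.07 (adjusted *P* = 0.369, SE 0.58) at P20, −0.76 (SE 0.72) there without mice 3 and 4, and −0.77 (adjusted *P* = 0.396, SE 0.36) at P40. Leaving out 1 mouse gave −1.42 to −0.72 at P20 and −1.03 to −0.61 at P40.

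*Ddit3* and *Trib3*, which act late in the response, differed between the eyes at P20 by less than their spread. *Ddit3* was at 14.7 to 31.2 CPM in P20 control eyes (mean 22.5) and 14.4 to 26.5 CPM in P20 Nrf2 eyes (mean 19.5), and its log2 fold change was −0.22 (SE 0.16), or −0.31 to −0.13 when 1 mouse was left out. *Trib3* was at 1.67 to 3.68 CPM in P20 control eyes (median 2.83) and 0.49 to 7.58 CPM in P20 Nrf2 eyes (median 3.47), and its log2 fold change of 0.27 (SE 0.49) became −0.033 without mouse 7. Without mice 3 and 4 the values were −0.14 (SE 0.21) for *Ddit3* and 0.22 (SE 0.67) for *Trib3*. Neither gene had the same direction in all 7 mice.

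At P40 both were lower in most Nrf2 eyes. *Ddit3* was at 28.1 to 110 CPM in P40 control eyes (median 48.4) and 18.3 to 145 CPM in P40 Nrf2 eyes (median 30.5). It was lower in the Nrf2 eye of 8 of 9 mice, and the exception, mouse 6, held the highest value of the 18 libraries. The log2 fold change was −0.53 (adjusted *P* = 0.562, SE 0.31), and without mouse 6 it was −0.78 (adjusted *P* = 0.0484, in a range from 0.0484 to 0.939 over the alternatives). *Trib3* was at 4.60 to 16.3 CPM in P40 control eyes (median 8.30) and 1.66 to 6.66 CPM in P40 Nrf2 eyes (median 5.30). There 7 of 9 control eyes were above every Nrf2 eye, 7 of 9 mice had the lower level in the Nrf2 eye, and the log2 fold change was −0.90 (adjusted *P* = 0.256, SE 0.35). Leaving out 1 mouse gave −0.78 to −0.36 for *Ddit3* and −1.07 to −0.65 for *Trib3*.

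*Atf3* went the other way. It was at 2.26 to 6.11 CPM in P20 control eyes (median 2.89) and 2.85 to 6.43 CPM in P20 Nrf2 eyes (median 5.14), and at 2.18 to 6.81 CPM in P40 control eyes (median 4.01) and 3.56 to 9.97 CPM in P40 Nrf2 eyes (median 8.16). The Nrf2 eye was higher in 5 of 7 mice at P20 and in 8 of 9 at P40, with mouse 6 the exception at P40. The log2 fold change was 0.56 (adjusted *P* = 0.266, SE 0.24) at P20, 0.52 (SE 0.33) there without mice 3 and 4, and 0.74 (adjusted *P* = 0.0829, SE 0.21) at P40. At P40 *Atf3* passed the threshold with DESeq2 (adjusted *P* = 0.00255), with limma voom (adjusted *P* = 0.00814), and without mouse 6 (0.84, adjusted *P* = 0.0368), and the adjusted *P* ran from 0.00255 to 0.225 over the alternatives.

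The 4 genes of the unfolded protein response did not pass the threshold between the eyes at either age. At P20 log2 fold changes were −0.18 (SE 0.11) for *Xbp1*, 0.10 (SE 0.11) for *Hspa5*, 0.19 (SE 0.11) for *Hsp90b1*, and −0.14 (SE 0.10) for *Herpud1*. Without mice 3 and 4 these were −0.24, 0.12, 0.24, and −0.19. At P40 they were −0.14 (SE 0.16), −0.15 (SE 0.16), −0.03 (SE 0.14), and −0.11 (SE 0.17). Leaving out 1 mouse gave −0.23 to −0.11 for *Xbp1* and −0.18 to −0.084 for *Herpud1* at P20, and −0.21 to −0.045 for *Xbp1*, −0.22 to −0.084 for *Hspa5*, −0.066 to 0.014 for *Hsp90b1*, and −0.21 to −0.030 for *Herpud1* at P40. No adjusted *P* of these 4 genes was under 0.1 for the Nrf2 comparison at either age, under any alternative. *Hspa5* was at 544 to 821 CPM in P20 control eyes (median 706) and 620 to 881 CPM in P20 Nrf2 eyes (median 721), and at 407 to 892 CPM in P40 control eyes (median 675) and 499 to 810 CPM in P40 Nrf2 eyes (median 584). The ranges overlapped at both ages, with 2 of 7 control eyes below every Nrf2 eye at P20, and 3 of 9 above and 1 of 9 below them at P40. The direction of *Hspa5* at P20 turned with total-count scaling (−0.031), under which the median of all genes was −0.17. At P40 *Xbp1*, *Hspa5*, and *Herpud1* were all lower in the Nrf2 eyes of mice 2, 4, 6, and 9. They were all higher in those of mice 3, 5, 7, and 8. *Xbp1* and *Herpud1* were each higher in 5 of 9 mice (2 and 4 of 9 with RLE scaling), and *Hspa5* in 4 of 9. Mouse 6 had the largest difference of *Xbp1*, at 142 CPM in its Nrf2 eye against 281 CPM (−0.99), and mouse 8 the largest of *Herpud1*, with the Nrf2 eye higher (0.81).

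**Figure D2:**
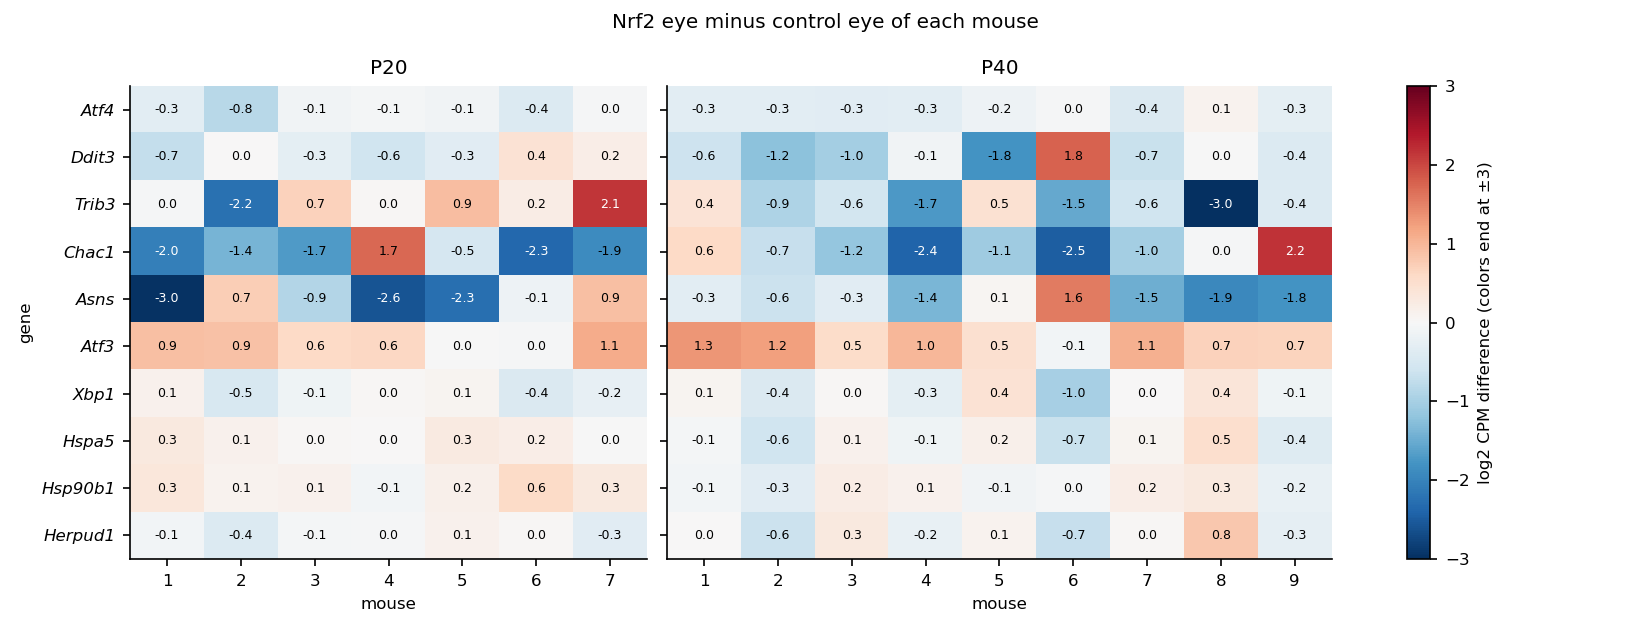
Difference in log2 CPM between the Nrf2 eye and the control eye for each gene (vertical axis) and mouse (horizontal axis) at P20 and P40, red where the Nrf2 eye was higher and blue where it was lower. *Chac1*, *Asns*, and *Trib3* vary most from mouse to mouse, with *Trib3* between −3.03 and 0.45 at P40, and *Hspa5* spreads from −0.02 to 0.30 at P20 and wider, from −0.66 to 0.51, at P40.

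Other genes of these pathways were counted on lists, beside the share over all genes. Of all genes tested, 2.93% were higher and 0.485% lower at P20, and 3.33% higher and 1.23% lower at P40. Among 17 transcription factors and effectors of the ATF4 pathway tested, 3 were higher and 0 lower at P20: *Gdf15*, a stress-induced cytokine (2.44, SE 0.33), *Eif4ebp1*, a repressor of translation (1.31, SE 0.25), and *Cebpb*, a partner of ATF4 (1.01, SE 0.20). The same 3 genes were higher at P40 (1.32, 1.51, and 0.88), and *Stc2*, a secreted glycoprotein, was lower (−2.03, SE 0.31). The list's median log2 fold change was 0.19 at P20 and 0.00 at P40. Among 29 genes of amino acid synthesis, transport, and tRNA charging, *Slc7a11*, the cystine transporter and also a known target of Nrf2, was higher at P20 (2.68, SE 0.33) and P40 (3.55, SE 0.37), and *Iars*, a tRNA synthetase, was higher at P20 (0.61, SE 0.12), with list medians of −0.01 and −0.02.

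The sensors and the ER machinery were counted likewise. Among 9 kinases and phosphatase genes of eIF2, *Eif2ak4*, which encodes the amino acid sensor GCN2, was higher at P20 (0.70, SE 0.14) and 0 genes passed at P40, with list medians of 0.12 and 0.03. Among 9 genes of the IRE1 and ATF6 branches, 0 passed at P20 and 1 at P40, *Creb3l1*, a transcription factor cleaved like ATF6 (1.59, SE 0.33), with medians of −0.03 and 0.05. None of 21 ER chaperone genes passed at either age (medians 0.16 and 0.08), and 1 of 23 genes of ER-associated degradation and the translocon did, *Erlec1*, an ER lectin (0.78, SE 0.16 at P20 and 0.80, SE 0.18 at P40, list medians 0.09 and 0.05). Of the immediate early genes, among which *Atf3* is often counted, *Egr1* was lower at both ages (−1.36, SE 0.27 and −1.26, SE 0.28), and the list medians were −0.77 over 17 genes at P20 and −0.35 over 16 genes at P40. Without P20 mice 3 and 4, 4.58% of all genes passed at P20, against 3.41% with them. Genes past the threshold then numbered 1 higher and 1 lower for the ATF4 factors and 1 higher for the amino acid list. There was 1 higher for the ER chaperones, 1 higher for ER-associated degradation, 3 lower for the immediate early genes, and 0 for the other 2 lists. *Eif2ak4*, on 1 of those 2 lists, thus no longer passed. Which of the other genes named above still passed at P20 is not given.

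**Figure D3:**
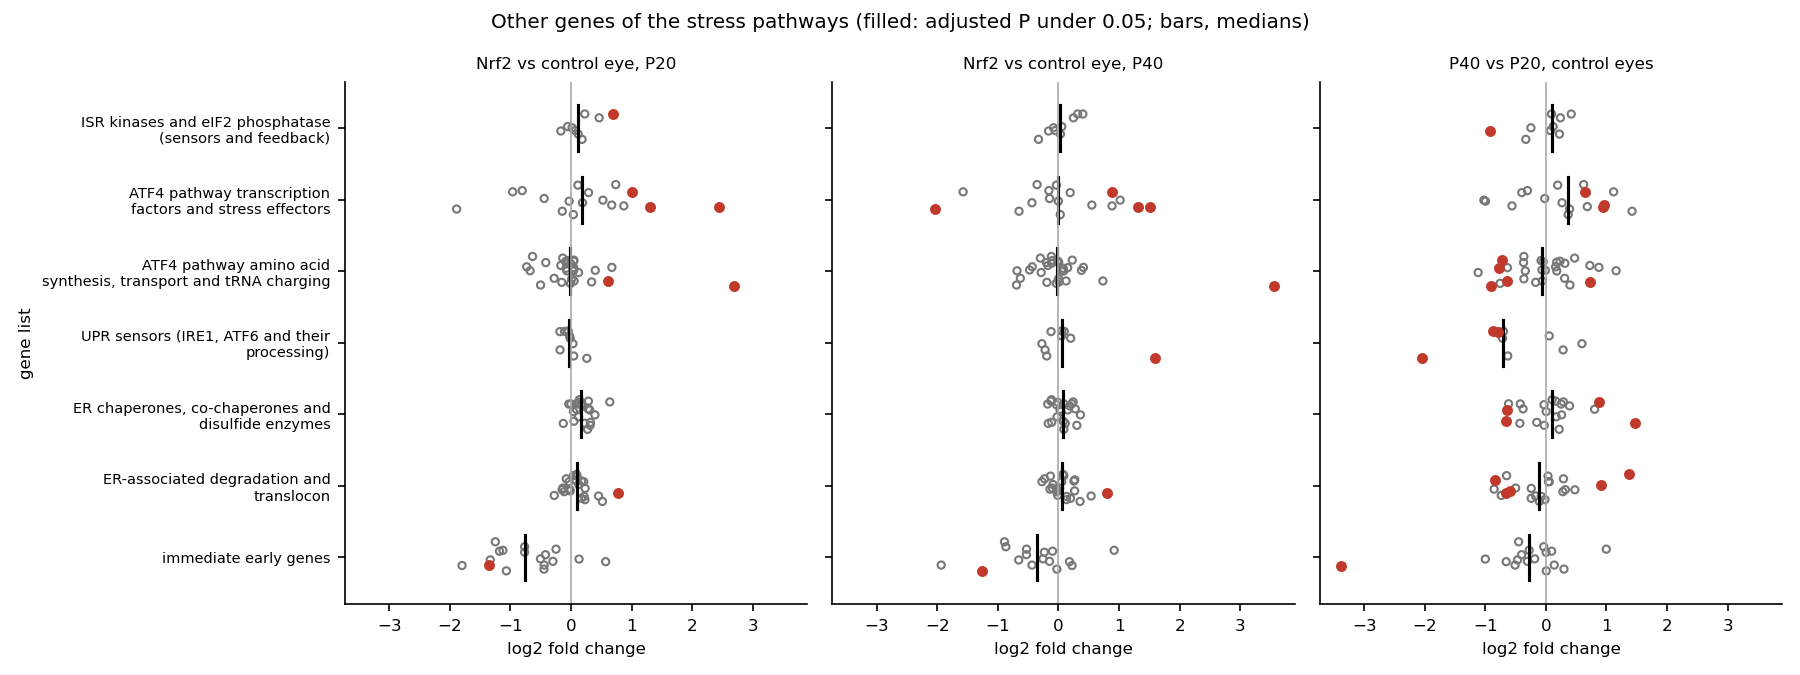
Log2 fold change (horizontal axis) of each gene on 7 lists of the stress pathways (vertical axis) for Nrf2 against control eyes at P20 and P40 and for P40 against P20 in control eyes, with filled points for an adjusted *P* under 0.05 and bars at the list medians. *Slc7a11* is the point farthest to the right in both Nrf2 comparisons, at 2.68 and 3.55.

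Markers of cell types moved with Nrf2 in the same libraries. All 8 cone markers had values below 0 at both ages, with medians of −3.04 at P20 and −4.00 at P40, and 2 of 8 passed the threshold at P20 (1 of 8 without mice 3 and 4) and 8 of 8 at P40. The summed cone level at P20 was 17.9 to 94.9 CPM in Nrf2 eyes (median 31.2) and 39.1 to 931 CPM in control eyes (median 309), with *Gnat2* and *Arr3* the most abundant. At P40 it was 28.8 to 307 CPM (median 48.7) against 271 to 2106 CPM in control eyes (median 788), where *Pde6h* had the highest mean. Of 12 RPE markers, 5 passed the threshold as lower at P40, the largest change being that of *Rpe65* (−2.82, SE 0.32). *Rpe65* was also the 1 of 12 that passed at P20 (−2.17, SE 0.37), and 1 of 12 passed without mice 3 and 4. RPE values were below 0 for 7 markers and above 0 for 5 at P20 (median −0.26). At P40 they were below 0 for 10 and above 0 for 2 (median −0.51). *Ttr* was higher in the Nrf2 eye of 6 of 7 mice at P20 and 6 of 9 at P40. Of 10 macrophage and microglia markers, 9 had values above 0 at P20 (median 1.07), none past the threshold with or without mice 3 and 4, and 8 at P40 (median 1.65), where 6 passed. The summed level at P20 was 156 to 668 CPM in Nrf2 eyes (median 169) and 121 to 386 CPM in control eyes (median 247). At P40 it was 151 to 493 CPM in Nrf2 eyes (median 344) and 88.9 to 467 CPM in control eyes (median 193), with *Csf1r* the most abundant in both. *Csf1r* itself had a lower mean in Nrf2 eyes (62.7 CPM) than in control eyes (140 CPM), and its log2 value of −0.99 (SE 0.29) did not pass the threshold. Rod markers had values below 0 in 8 of 8 at P20 (median −1.56) and 7 of 7 at P40 (median −0.85), and those of Müller glia and inner retina in 9 of 10 at P20 (median −0.75) and 6 of 10 at P40 (median −0.16). One rod marker of 7 tested passed as lower at P40 (*Gngt1*, −4.18) and 1 of 7 fibroblast markers as higher (*Col3a1*, 1.13), and with all mice 0 of the markers of Müller glia and inner retina, endothelium, muscle, blood, and melanocytes passed at either age. Their part in the values of the stress genes was not tested.

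The comparison of the ages in control eyes sets these genes at P40 against P20. Degeneration, normal maturation, and strain cannot be told apart in it. The titles of the libraries begin with 1 letter at P20 and another at P40, so that age cannot be told apart from whatever these letters stand for. Here 2 of the 10 genes passed the threshold by edgeR, both higher at P40, while 14.8% of all 16832 genes passed in either direction and 8.34% were higher. These were *Trib3* and *Ddit3*, and the share of the 10 genes was close to that background. DESeq2 also called 2 of 10 (26.6% of all genes) and limma voom 3 of 10 (22.3%), while without P20 mice 3 and 4 edgeR called 1 of 10, against 0.916% of 17254 genes. The median log2 fold change of the 10 genes was 0.21, beside 0.00 over all genes.

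*Trib3* rose with age, being at 1.67 to 3.68 CPM (median 2.83) in the eyes at P20 and at 4.60 to 16.3 CPM (median 8.30) in those at P40. The groups did not overlap, all 9 control eyes at P40 being above all 7 at P20. The log2 fold change was 1.91 (adjusted *P* = 0.00498, SE 0.31), and 1.96 (adjusted *P* = 0.0296, SE 0.37) without P20 mice 3 and 4, and it passed the threshold under every alternative run, with an adjusted *P* from 5.2e-08 to 0.0296. *Ddit3* rose as well, being at 14.7 to 31.2 CPM (mean 22.5) at P20 and at 28.1 to 110 CPM (mean 53.9) at P40, and 7 of 9 eyes at P40 were above every eye at P20. Its log2 fold change was 1.31 (adjusted *P* = 0.0187, SE 0.29), and without P20 mice 3 and 4 it was 1.38 (SE 0.34) and no longer past the threshold (adjusted *P* = 0.0572, in a range from 0.000378 to 0.0572). The exons of *Ddit3* overlap those of *Mars* on the other strand, and those of *Hsp90b1* likewise overlap *1810014B01Rik*. Whether counting used the strand is not given in the sources used here. *Mars* had a log2 fold change of 0.73 (adjusted *P* = 0.147, SE 0.35) with age in the same eyes, and its part in the *Ddit3* count was not tested.

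The other 8 genes did not pass the threshold with age in control eyes by edgeR, and *Herpud1* did so with limma voom (0.33, adjusted *P* = 0.0463, in a range from 0.0463 to 0.840). Their log2 fold changes were 0.35 (SE 0.27) for *Atf3*, 0.29 (SE 0.36) for *Asns*, 0.24 (SE 0.18) for *Herpud1*, 0.18 (SE 0.43) for *Chac1*, 0.12 (SE 0.17) for *Xbp1*, 0.09 (SE 0.11) for *Atf4*, 0.06 (SE 0.14) for *Hsp90b1*, and 0.00 (SE 0.18) for *Hspa5*. With P20 mice 3 and 4 left out they were, in the same order, 0.27, 0.41, 0.25, −0.12, 0.084, 0.046, 0.076, and −0.0048, so that *Chac1* and *Hspa5* turned direction. Leaving out 1 eye gave 0.19 to 0.57 for *Atf3*, 0.15 to 0.63 for *Asns*, 0.022 to 0.12 for *Atf4*, 0.062 to 0.17 for *Xbp1*, and 0.0064 to 0.11 for *Hsp90b1*. *Atf4*, *Xbp1*, *Hspa5*, and *Hsp90b1* were negative with total-count scaling (−0.10, −0.028, −0.17, and −0.14), under which the median of all genes was −0.18. So *Ddit3* and *Trib3* mRNA rose with age in control eyes while *Atf4* mRNA differed by less than its spread. *Xbp1* and *Herpud1* were more spread out at P40 than at P20, with *Xbp1* at 172 to 246 CPM in P20 control eyes and 119 to 294 CPM in P40 control eyes, and *Herpud1* at 117 to 154 and 82.2 to 217 CPM. Both eyes of P40 mouse 3 had the lowest *Xbp1* levels of their groups, at 119 and 121 CPM.

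**Figure D4:**
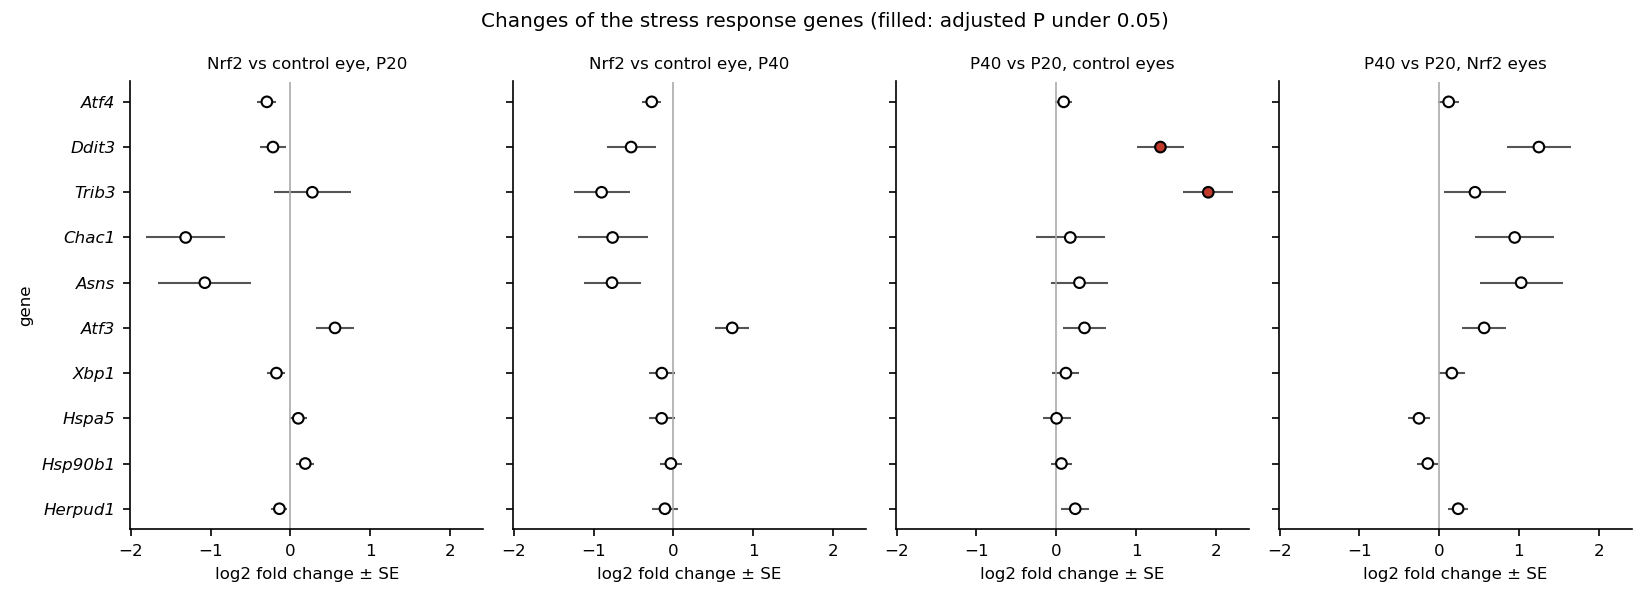
Log2 fold change with its standard error (horizontal axis) for each of the 10 genes (vertical axis) in the comparisons of eyes at P20 and P40 and of ages in control and Nrf2 eyes, with filled points for an adjusted *P* under 0.05. Only *Ddit3* (1.31) and *Trib3* (1.91) with age in control eyes are filled.

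Other genes of the pathways changed in both directions with age in control eyes, where 6.42% of all genes were lower. The factors and effectors of the ATF4 pathway had 3 of 17 higher, *Cebpd* (0.96, SE 0.22), *Gdf15* (0.94, SE 0.29), and *Cebpb* (0.64, SE 0.18), and 0 lower, with a list median of 0.37. The amino acid list had 1 of 29 higher, *Psph*, of serine synthesis (0.73, SE 0.17), and 4 lower, the transporters *Slc7a11* (−0.90), *Slc1a5* (−0.77), and *Slc38a2* (−0.73), and *Iars* (−0.65), with a median of −0.06. The IRE1 and ATF6 list had 3 of 9 lower, *Creb3l1* (−2.04, SE 0.33), *Mbtps1*, a protease that cleaves ATF6 (−0.88, SE 0.22), and *Atf6* itself (−0.79, SE 0.21), and a median of −0.70. Of the chaperones, *Fkbp2* (1.47) and *Manf* (0.87) were higher and *Calr* (−0.66) and *Dnajb9* (−0.65) lower among 21, with a median of 0.10. Of ER-associated degradation and the translocon, *Sec61b* (1.37) and *Selenos* (0.90) were higher and *Edem1* (−0.84), *Erlec1* (−0.66), and *Ssr3* (−0.59) lower among 23, with a median of −0.11. *Ppp1r15b*, the constitutive eIF2 phosphatase subunit, was lower (−0.92, SE 0.27, 1 of 9, list median 0.09), as was *Fosb* among 17 immediate early genes (−3.38, SE 0.78, list median −0.28). Over all genes, those past the threshold fell from 2483 to 158 without P20 mice 3 and 4. In that setting there was 1 for the IRE1 and ATF6 list and 1 for the immediate early genes, both lower, and 0 for the other 5 lists.

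Cell type markers moved with age as well. In control eyes, 4 of 7 fibroblast markers passed the threshold as lower at P40, as did 2 of 6 melanocyte markers (*Pmel*, −1.94, and *Tyr*, −1.10) and 1 of 5 blood markers (*Alas2*, −1.46). Of 12 RPE markers, 11 had values above 0 (median 0.60), and *Ttr* was the 1 past the threshold (2.20, SE 0.55). Of these lists, 1 of 7 fibroblast, 1 of 6 melanocyte, 0 of 5 blood, and 0 of 12 RPE markers passed without P20 mice 3 and 4. The summed fibroblast level was 115 to 669 CPM (median 409) at P20 and 90.3 to 462 CPM (median 276) at P40. *Dcn* was the most abundant fibroblast marker, and its mean was higher at P40 (160 CPM) than at P20 (136 CPM). Melanocyte sums had medians of 10658 CPM at P20 and 5885 CPM at P40, and blood sums of 1084 and 746 CPM. Log2 values of the fibroblast, melanocyte, and blood markers that did not pass are not given. All 8 cone markers had values above 0 (median 1.42), none past the threshold, and their summed level was 39.1 to 931 CPM (median 309) at P20 and 271 to 2106 CPM (median 788) at P40. Values were below 0 for 5 of 8 rod markers (median −0.21) and for 7 of 10 markers of Müller glia and inner retina (median −0.55), for which single markers and calls are not given. The part of these cell types in the rise of *Trib3* and *Ddit3* was not tested.

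In Nrf2 eyes, 0 of the 10 genes passed the threshold between the ages by edgeR, where 0.502% of all 16745 genes did. At an unadjusted *P* under 0.05 there was 1 of 10 (25.8% of all genes), and DESeq2 called 1 of 10 (12.1%) and limma voom 2 of 10 (13.2%). *Ddit3* was at 14.4 to 26.5 CPM at P20 and 18.3 to 145 CPM at P40, with 5 of 9 eyes at P40 above every eye at P20, and its log2 fold change was 1.25 (adjusted *P* = 0.110, SE 0.40), or 1.21 (SE 0.48) without P20 mice 3 and 4. Leaving out 1 eye gave 0.76 to 1.35 for *Ddit3*, 0.25 to 0.72 for *Trib3*, 0.44 to 1.14 for *Chac1*, 0.53 to 1.37 for *Asns*, 0.095 to 0.23 for *Xbp1*, and 0.045 to 0.17 for *Atf4*. With DESeq2 *Ddit3* passed (1.27, adjusted *P* = 0.0275, in a range from 0.0275 to 0.238). *Trib3* overlapped between the ages, at 0.49 to 7.58 and 1.66 to 6.66 CPM, with a log2 fold change of 0.45 (adjusted *P* = 0.482, SE 0.39). *Asns* (1.03, SE 0.52), *Chac1* (0.95, SE 0.49), *Atf3* (0.56, SE 0.27), *Herpud1* (0.24, SE 0.13), *Xbp1* (0.16, SE 0.16), and *Atf4* (0.12, SE 0.13) had values above 0, and *Hspa5* (−0.25, SE 0.14) and *Hsp90b1* (−0.14, SE 0.13) below 0, none past the threshold. Leaving out P20 mice 3 and 4, where 0 of 10 passed against 0.116% of all genes, gave 0.46 for *Trib3*, and 0.81, 0.96, 0.51, 0.28, 0.17, 0.14, −0.29, and −0.19 for these 8 genes in the same order. The 2 genes that limma voom called were *Atf3* (0.68, adjusted *P* = 0.0362, in a range from 0.0362 to 0.384) and *Herpud1* (0.33, adjusted *P* = 0.0320, in a range from 0.0320 to 0.708). The median of the 10 genes was 0.34, beside 0.02 over all genes. Of the 7 pathway lists, 1 gene passed, *Psat1*, of serine synthesis (−0.62, SE 0.10, 1 of 29), and of the markers 1, *Pmel* (−2.51). Without calls, values were above 0 for 6 of 6 muscle markers (median 1.85), 9 of 10 of Müller glia and inner retina (median 0.86), 7 of 8 of endothelium (median 0.77), and 6 of 8 of cones (median 0.98). So were 4 of 5 blood markers (median 0.95) and 8 of 10 of macrophages and microglia (median 0.22). Values were below 0 for 6 of 7 fibroblast markers (median −0.53) and, with *Pmel*, for 5 of 6 melanocyte markers (median −0.97). The summed level of the RPE markers was 12567 to 30399 CPM (median 18465) at P20 and 13681 to 72896 CPM (median 21365) at P40.

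Since *Trib3* passed the threshold with age in control eyes and not in Nrf2 eyes, the difference itself was tested as the change of the Nrf2 effect from P20 to P40. None of the 10 genes passed by edgeR, DESeq2, or limma voom, nor at an unadjusted *P* under 0.05, while 0.00557% of 17959 genes passed by edgeR, 0.0668% by DESeq2, 0.00557% by limma voom, and 2.39% at an unadjusted *P* under 0.05. For *Trib3* the difference was −1.17 (SE 0.60, unadjusted *P* = 0.0689, adjusted *P* = 1.00), so that the age change was not shown to differ between Nrf2 and control eyes. For the other genes it was 0.55 (SE 0.69) for *Chac1*, 0.32 (SE 0.68) for *Asns*, −0.30 (SE 0.38) for *Ddit3*, −0.24 (SE 0.19) for *Hspa5*, −0.21 (SE 0.16) for *Hsp90b1*, 0.19 (SE 0.30) for *Atf3*, 0.04 (SE 0.21) for *Herpud1*, 0.04 (SE 0.20) for *Xbp1*, and 0.03 (SE 0.15) for *Atf4*. Without P20 mice 3 and 4, where 0 of 10 passed against 0.00542% of all genes, the difference was −1.17 (SE 0.72) for *Trib3* and, in the order above, 0.92, −0.030, −0.42, −0.29, −0.30, 0.19, 0.055, 0.070, and 0.093 for the others. Leaving out 1 mouse gave −1.52 to −0.91 for *Trib3*, 0.24 to 0.95 for *Chac1*, −0.58 to −0.16 for *Ddit3*, and 0.085 to 0.26 for *Atf3*. For *Atf4*, *Asns*, *Xbp1*, and *Herpud1* it gave values on both sides of 0. No gene on the pathway or marker lists passed in this comparison. The comparisons of eyes and of ages share control libraries, so that their values are set side by side and are not independent.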

How the data were processed

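According to the submitters' processing notes, Salmon 0.9.1 and FastQC were used. The authors deposited estimated counts per gene as whole numbers without normalization. The methods name featureCounts and Salmon, and state that differential expression used the gene counts from Salmon. Which of them made the deposited table is not given in the sources used here. RNA was amplified before library preparation, and libraries were sequenced in 2 runs that the labels do not assign, so that runs were not tested. Of 34453 entries, 34401 had a symbol and 4268 had no count in any library.

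Counts were fitted over all genes in R 4.3.3 with edgeR 4.0.16 (filterByExpr, TMM, quasi-likelihood test), with Benjamini-Hochberg adjustment over all genes tested and a threshold of 0.05. The mouse was a block for Nrf2 against control eyes and for the difference of that effect between the ages, and there was no block between the ages. DESeq2 1.42.0 and limma 3.58.1 (voom with quality weights), RLE scaling, no filter, no block, leaving out each mouse or eye, and leaving out P20 mice 3 and 4 were alternatives. Total-count scaling was added after seeing the data, as were the lists without P20 mice 3 and 4. CPM values use TMM library sizes, and 2 was the prior count for log2 CPM. In a library, 3 counts stood for 0.0566 to 0.182 CPM, which covers counting error only. Libraries far from their group were marked by Dixon's ratio on log2 CPM, against its tabulated critical values for groups of 7 and 9. Exon lengths came from GENCODE annotation of GRCm38. The fits were first tested on simulated data.

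The eyes of a mouse are paired by the labels and the methods. The mean correlation of their deviations was 0.0213 (P20) and 0.0990 (P40) within mice, and −0.000519 and −0.00632 between mice, with 3 pairs over 0.1 at each age.

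The 10 genes, the 7 pathway lists, and the 10 marker lists were chosen with earlier results of these data known. The 10 genes are always named, and for each pathway list at most the 5 genes past the threshold with the largest change. Marker genes named in the text were chosen after their values were seen.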

Additional observations from a re-analysis of the deposited data

Results flagged for a closer look

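In 40 sets of values (10 genes in 4 groups), 7 held a library far from the others of its group, where chance alone marks about 1 in 20 groups. *Atf3* was at 6.11 CPM in the control eye of P20 mouse 6 (other control eyes 2.26 to 3.40). *Atf4* was at 43.5 CPM in the Nrf2 eye of P20 mouse 2 (others 60.4 to 72.6), and *Trib3* in the same library at 0.49 CPM (others 3.12 to 7.58). *Trib3* was at 1.66 CPM in the Nrf2 eye of P40 mouse 8 (others 4.37 to 6.66). *Chac1* was at 2.30 CPM in the control eye of P20 mouse 4 (others 8.98 to 17.9). *Hsp90b1* was at 341 CPM in the control eye of P20 mouse 6 (others 442 to 522) and at 352 CPM in the control eye of P40 mouse 8 (others 429 to 515).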

How the results depend on the processing

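*Trib3* with age in control eyes passed the threshold under all 22 alternatives and *Ddit3* under 21. Of the 960 values of single genes under an alternative, 905 kept direction and side of the threshold, 12 came to pass it, 1 no longer did, and 42 turned direction. The cause of these changes was not tested.

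The number of the 10 genes past the threshold for Nrf2 at P20 was 1 with DESeq2 (12% of all genes), with limma voom (16%), and without P20 mice 3 and 4 (4.58%), and 0 to 1 when leaving out 1 mouse (111 to 1999 of all genes). At P40 it was 1 with DESeq2 (8.27%) and limma voom (7.95%) and 0 to 2 when leaving out 1 mouse (521 to 997 of all genes). With age in control eyes it was 2 with DESeq2 (26.6%), 3 with limma voom (22.3%), and 1 without P20 mice 3 and 4 (0.916%), and in Nrf2 eyes 1 with DESeq2 (12.1%) and 2 with limma voom (13.2%).

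None of the values that turned was past the threshold. Leaving out 1 mouse gave −0.033 to 0.63 for *Trib3* at P20 and −0.066 to 0.014 for *Hsp90b1* at P40. With age in control eyes, leaving out 1 eye gave −0.088 to 0.30 for *Chac1* and −0.065 to 0.075 for *Hspa5*. For the change of the Nrf2 effect with age, leaving out 1 mouse gave −0.060 to 0.067 for *Atf4*, −0.033 to 0.65 for *Asns*, −0.061 to 0.11 for *Xbp1*, and −0.10 to 0.11 for *Herpud1*. Total-count scaling turned *Hspa5* for Nrf2 at P20 (−0.031), *Atf4* (−0.10), *Xbp1* (−0.028), *Hspa5* (−0.17), and *Hsp90b1* (−0.14) with age in control eyes, and *Atf4* with age in Nrf2 eyes (−0.026). No filter turned *Hspa5* (−0.064) and *Hsp90b1* (−0.011) with age in control eyes. Without P20 mice 3 and 4, *Chac1* (−0.12) and *Hspa5* (−0.0048) turned with age in control eyes, and *Asns* (−0.030) for the change of the Nrf2 effect. Limma voom turned *Hsp90b1* with age in control eyes (−0.0014), *Atf4* with age in Nrf2 eyes (−0.029), and *Atf4* for the change of the Nrf2 effect (−0.12).

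Numbers of genes past the threshold over all genes moved more. For Nrf2 at P20 they were 556 in the fit reported, 348 with no filter, 1951 with DESeq2, 2605 with limma voom, and 759 without P20 mice 3 and 4. Without the pairing (no replicate block) there were 1093, and the block changed no call of the 10 genes. At P40 there were 762, against 1380 with DESeq2 and 1327 with limma voom. With age in control eyes there were 2483, against 914 with no filter, 4383 with DESeq2, 3747 with limma voom, 158 without P20 mice 3 and 4, and 473 to 4273 when leaving out 1 eye. With age in Nrf2 eyes there were 84, against 39 with total-count scaling, 31 with no filter, 1832 with DESeq2, 2213 with limma voom, 20 without P20 mice 3 and 4, and 21 to 190 when leaving out 1 eye. For the change of the Nrf2 effect there was 1, against 12 with DESeq2.

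The share of higher genes moved with scaling and with other settings. At P20, 477 of 556 were higher, 313 of 507 with total-count scaling, and 502 of 759 without P20 mice 3 and 4. Without P20 mouse 4 alone, 986 of 1999 were higher. With age in control eyes, 1403 of 2483 were higher, and 521 of 1799 with total-count scaling. Without P20 mice 3 and 4 it was 35 of 158, and without the P20 eye of mouse 5 it was 155 of 473. No filter gave 295 of 914 and limma voom 1625 of 3747. In Nrf2 eyes, 28 of 84 were higher with age, against 1196 of 1832 with DESeq2 and 610 of 2213 with limma voom. Under total-count scaling the median of all genes was −0.17 for Nrf2 at P20, −0.18 with age in control eyes, and −0.12 with age in Nrf2 eyes.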
